A study of Mus musculus with 30 samples.

Results

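Male adipocyte libraries labelled as Ctnnb1 knockout were compared with male adipocyte libraries labelled Ctnnb1fl/fl, across every expressed gene. The libraries were chosen by their column names in the deposited count table, which gave 5 knockout-labelled and 6 control libraries, 11 of the 30 in the series. The protocols call the knockout-labelled mice Ctnnb1AdKO, and the controls carry the floxed alleles. All 11 libraries were strand-specific mRNA libraries from the buoyant cells left after collagenase digestion and a low-speed spin, and the labels name both the epididymal and the posterior subcutaneous fat depot for each one. The labels give neither the driver of the deletion, nor the exons it removes, nor the age or strain of the mice. They number the replicates without stating that each number is a separate mouse, so p-values measure the spread between these libraries, which may be technical. The series also holds 12 female adipocyte libraries, 6 of each label, and 7 libraries of the pelleted stromal-vascular cells of males, 4 knockout-labelled and 3 control.

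The protein encoded by Ctnnb1, β-catenin, is the transcriptional effector of canonical Wnt signalling. Wnt ligands stop its destruction by the Axin and Apc complex, and it then enters the nucleus and works with Tcf/Lef factors; a separate pool ties cadherins to α-catenin at cell contacts. In fat, Wnt signalling is best known for holding precursor cells back from becoming adipocytes. Mature adipocytes take up glucose under insulin, make and store triglyceride, release fatty acids by lipolysis and secrete hormones such as adiponectin and leptin.

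The libraries held 21769041 to 22209603 counts each. Levels are in CPM, counts scaled to the library total, which are not corrected for gene length and are compared only between libraries. The adipocyte identity of the fraction was clear in every library: Adipoq, which encodes adiponectin, stood at 4210 to 5285 CPM in knockout-labelled libraries 1 to 4 and 3631 CPM in library 5, against 4325 to 5570 CPM in controls (median 4835). Of the 11 adipocyte markers 0 were called between the labels by edgeR, DESeq2 or limma-voom without sample weights, 3 were called by limma-voom with sample weights, and 3 had an unadjusted p below 0.05 in edgeR. Each gene was tested by quasi-likelihood in edgeR and called at a Benjamini-Hochberg adjusted p below 0.05 over all genes tested. Knockout-labelled library 5 stood apart from the other 10. Among 6028 genes with a mean of at least 20 CPM, it was the highest or lowest library for 3149, against 539 to 1581 for each of the others, and by at least 0.5 log2 units for 347 genes, against 0 to 22. Leaving library 5 out was decided with earlier results known, among them that it stood apart in lipogenic genes. The calls are given with all 11 libraries and with library 5 left out.

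Ctnnb1 itself was not lower under the knockout label. It read 308, 326, 324, 316 and 368 CPM in knockout-labelled libraries 1 to 5, against 308 to 341 CPM in the 6 controls (median 329). The groups overlapped, and library 5 was the highest of the 11. An exact two-sided permutation test gave p = 0.883 for 5 against 6 libraries and p = 0.271 without library 5. The counts are per gene, so reads from exons outside the deleted part count fully. The removed exons are not given in the labels, and the gene's count therefore does not check the label. For this reason the libraries are called knockout-labelled throughout, and every direction given is between labels.

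With all 11 libraries, 10 of 14227 genes were called (0.0703%), 3 higher (0.0211%) and 7 lower (0.0492%) in knockout-labelled libraries, with 1861 genes at an unadjusted p below 0.05. The lower genes were Pon1, Serpina3b, Serpina3k, Bckdhb, Colec12, Fmo4 and Hoxc10, and the higher genes were Bicd2, Morf4l2 and Btbd10. With upper-quartile scaling in place of TMM the split was 1 higher and 8 lower. All 10 genes were also among those called without library 5. The groups did not overlap for 143 genes higher (1.01%) and 109 lower (0.766%) in knockout-labelled libraries. The number called changed by more than 1.5 times when single libraries were left out: 4 without control 1, 55 without control 2, 6 without knockout-labelled library 4 and 332 without knockout-labelled library 5.

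Of the 5 genes looked up for their promoters (Pon1, Serpina3b, Serpina3k, Bckdhb and Grb14, the genes on which the comparison turns most), 4 had a RefSeq entry, on build GRCm38.p6, which is not the build of the counts. Each sequence runs from 250 bases before to 50 bases after the first listed transcription start, 5′ to 3′ on the gene's strand. Capitals mark the 2 kinds of motif found of 3 searched on both strands: a Tcf/Lef site (spelled CTTTGAA, or with its last pair of letters as AT, TA or TT), an E-box (CACGTG) and a TATA box (TATAAA). The promoters are those of Pon1 at chr6:5193897-5194196 (minus strand), Serpina3b at chr12:104127746-104128045 (plus strand), Bckdhb at chr9:83924887-83925186 (plus strand) and Grb14 at chr2:65022717-65023016 (minus strand).
Pon1: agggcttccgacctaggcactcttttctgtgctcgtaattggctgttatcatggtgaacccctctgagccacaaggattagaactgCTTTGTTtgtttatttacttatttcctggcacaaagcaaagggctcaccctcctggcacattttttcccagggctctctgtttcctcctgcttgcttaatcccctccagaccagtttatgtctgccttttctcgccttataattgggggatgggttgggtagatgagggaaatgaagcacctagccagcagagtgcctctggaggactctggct
Serpina3b: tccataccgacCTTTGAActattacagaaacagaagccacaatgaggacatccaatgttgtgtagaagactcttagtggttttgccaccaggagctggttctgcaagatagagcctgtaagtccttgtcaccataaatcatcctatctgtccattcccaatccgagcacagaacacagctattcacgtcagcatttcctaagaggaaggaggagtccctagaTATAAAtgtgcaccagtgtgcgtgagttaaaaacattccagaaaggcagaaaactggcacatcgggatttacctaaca
Bckdhb: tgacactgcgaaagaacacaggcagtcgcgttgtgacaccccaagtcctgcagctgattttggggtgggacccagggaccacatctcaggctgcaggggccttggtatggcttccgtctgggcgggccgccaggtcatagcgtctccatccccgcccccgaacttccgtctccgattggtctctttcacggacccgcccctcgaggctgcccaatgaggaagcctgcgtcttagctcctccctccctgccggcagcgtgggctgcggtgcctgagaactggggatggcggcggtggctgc
Grb14: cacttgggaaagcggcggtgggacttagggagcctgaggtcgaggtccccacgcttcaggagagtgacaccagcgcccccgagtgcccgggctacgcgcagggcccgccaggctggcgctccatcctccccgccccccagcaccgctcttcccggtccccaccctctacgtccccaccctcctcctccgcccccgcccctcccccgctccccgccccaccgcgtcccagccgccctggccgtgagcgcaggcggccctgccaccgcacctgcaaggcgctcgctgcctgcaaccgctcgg
Pon1 and Serpina3b each held 1 Tcf/Lef match, and Serpina3b 1 TATA match. Bckdhb and Grb14 held none of the searched letters, and their promoters were richer in G and C (65% and 75.3%) than those of Pon1 (49.3%) and Serpina3b (44.3%). Among promoters of the same length, a Tcf/Lef match was present in 11.2% of the 10527 genes tested here that have an entry, an E-box in 10.2% and a TATA match in 7.27%. A match is a description of the letters and not evidence of binding.

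Pon1 showed the widest change among the genes called with all 11 libraries. It encodes paraoxonase 1, an esterase that is best known as a liver product carried on high-density lipoprotein. Pon1 read 0.965, 1.42, 2.12, 2.00 and 2.57 CPM in knockout-labelled libraries 1 to 5, against 6.69 to 22.2 CPM in controls (median 13.8). Every knockout-labelled library, the 5th included, lay below every control. The fitted log2 fold change was -2.95 ± 0.38 (SE, adjusted p = 0.000876) with 11 libraries and -3.11 ± 0.42 (adjusted p = 0.00229) without library 5. The call held in all 23 alternative fits with all libraries and in all 22 without library 5. Its neighbours in the family did not pass in edgeR. Pon2 read 84.0 to 105 CPM under the knockout label and 79.4 to 101 CPM in controls. Pon3 read 81.3 to 121 CPM against 124 to 149 CPM, with adjusted p = 0.181 in edgeR without library 5. For Pon3 too, every knockout-labelled library lay below every control, as for 0.766% of all genes. Of the 3 paraoxonases, 2 had an unadjusted p below 0.05 in edgeR in each fit. Limma-voom with sample weights called 2 in each fit, and DESeq2 called 1.

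A second group lay in the Serpina3 cluster, a run of mouse genes that encode antichymotrypsin-like inhibitors of serine proteases. Serpina3b read 5.01, 4.62, 3.48, 6.99 and 4.06 CPM in knockout-labelled libraries 1 to 5, against 10.9 to 36.2 CPM in controls (median 24.9). Serpina3k read 2.21, 2.24, 2.80, 3.00 and 3.34 CPM, against 6.33 to 9.34 CPM in controls (median 7.67). For both genes all 5 knockout-labelled libraries lay below all 6 controls. The log2 fold changes with 11 libraries were -2.31 ± 0.34 (adjusted p = 0.00377) for Serpina3b and -1.53 ± 0.22 (adjusted p = 0.00211) for Serpina3k. Serpina3k was called in every alternative fit, and Serpina3b in all but those that left out knockout-labelled library 1 or 2 together with library 5. Without library 5 all 10 measured members of the cluster had a negative fold change, with a median of -0.86 against 0.00502 over all genes tested. Of the 10, 2 were called lower by edgeR, beside 0.934% of all genes. Without library 5, DESeq2 called 5 members and limma-voom with sample weights 9, beside 896 and 3277 of 14344 genes. With all libraries these tools called 3 and 9 members, beside 159 and 2778 of 14227 genes. Limma-voom without sample weights called 2 in each fit. In library 5 the members were split: 3 of the 10 lay below every control (Serpina3b, Serpina3k and Serpina3h), 2 above (Serpina3f and Serpina3m) and 5 within the control range. These counts are near the shares over all genes, of which 26.8% lay below and 26.2% above every control in library 5. With library 5 included the median of the cluster was -0.63. Serpina3m stood at 4.86 to 9.26 CPM in libraries 1 to 4 and 19.9 CPM in library 5, against 8.22 to 14.1 CPM in controls. The members are close copies, and the counting could have split shared reads between them.

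Bckdhb encodes the E1 beta subunit of the branched-chain ketoacid dehydrogenase, the mitochondrial complex that commits leucine, isoleucine and valine to breakdown. It read 143, 140, 148, 134 and 194 CPM in knockout-labelled libraries 1 to 5, against 170 to 244 CPM in controls (median 232). Libraries 1 to 4 lay below every control, and library 5 lay inside the control range, above control 3. The log2 fold change was -0.59 ± 0.11 (adjusted p = 0.0365) with 11 libraries and -0.70 ± 0.10 (adjusted p = 0.00229) without library 5, and the second value passed in all 22 alternative fits. With all 11 libraries the call held in 14 of 23. Of the 24 genes of branched-chain amino acid breakdown, 2 were called lower without library 5 and none higher, beside 0.934% of all genes called lower. Their median was -0.10 (-0.08 with all libraries). The other called gene was Hsd17b10, a dehydrogenase of isoleucine breakdown, at 107 to 137 CPM in libraries 1 to 4 and 168 CPM in library 5, against 149 to 188 CPM in controls (log2 fold change -0.41, adjusted p = 0.0384, against -0.31 and 0.209 with all libraries; the call was lost in 9 of 22 alternative fits). Bcat2, the mitochondrial transaminase of the first step, read 319 to 369 CPM in libraries 1 to 4, against 405 to 545 CPM in controls, and did not pass (adjusted p = 0.073).

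The remaining genes called with all libraries had narrower changes or low counts. Colec12, a scavenger receptor of the collectin family, read 13.6, 17.4, 14.2, 18.4 and 8.49 CPM in knockout-labelled libraries 1 to 5, against 20.4 to 32.3 CPM in controls (log2 fold change -0.85 ± 0.16, adjusted p = 0.0296). Bicd2, an adaptor that links cargo to the dynein motor, was higher, at 78.1, 67.9, 72.9, 56.6 and 72.5 CPM, against 38.4 to 58.0 CPM in controls (log2 fold change 0.60 ± 0.09, adjusted p = 0.00438). For Colec12 the groups did not overlap; for Bicd2 library 4 lay below control 2. Morf4l2, a chromatin-associated protein, read 207 to 239 CPM in the knockout-labelled libraries against 145 to 187 CPM in controls (log2 fold change 0.45, adjusted p = 0.0192). Btbd10 read 18.2 to 23.4 CPM under the knockout label against 12.6 to 19.7 CPM in controls (log2 fold change 0.48, adjusted p = 0.0365). Fmo4, a flavin monooxygenase, and Hoxc10, a homeobox gene of posterior body position, stayed at or below 1.27 CPM in all 11 libraries. Their calls rest on few reads: Fmo4 read 0.181 to 0.503 CPM against 0.678 to 1.27 CPM in controls, and Hoxc10 0.0454 to 0.226 CPM against 0.227 to 0.998 CPM. Over the alternative fits with all libraries, the call held in 22 of 23 for Bicd2, 17 of 23 for Colec12, 13 of 23 for Morf4l2 and 8 of 23 for Btbd10.

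**Figure D1:**
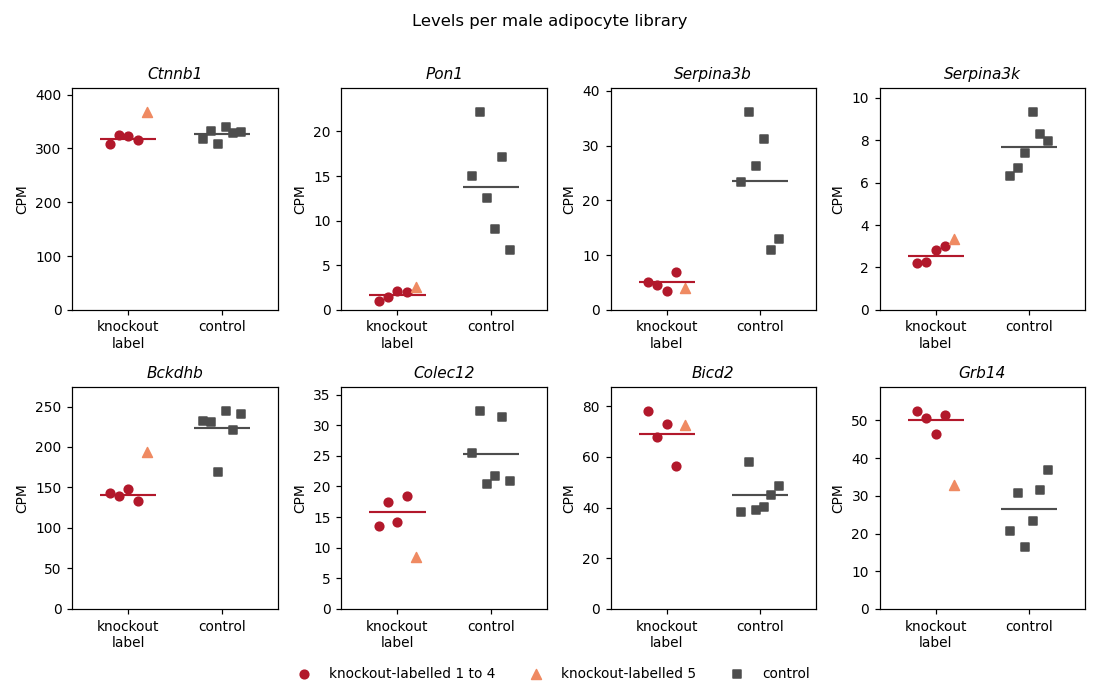
Level in CPM (linear axis from 0) of 8 genes in each male adipocyte library, knockout-labelled libraries at the left of each panel (circles for libraries 1 to 4, a triangle for library 5) and the 6 controls at the right (squares); lines are the means of libraries 1 to 4 and of the controls. Ctnnb1 overlaps between labels, Pon1, Serpina3b, Serpina3k and Colec12 do not, and in Bckdhb and Grb14 library 5 lies among the controls.

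Without library 5, 332 of 14344 genes were called (2.31%), 198 higher (1.38%) and 134 lower (0.934%) in knockout-labelled libraries, and 2858 had an unadjusted p below 0.05. The called changes were mostly small: the median log2 fold change was 0.49 among the higher and -0.46 among the lower genes, and 23 higher and 17 lower genes moved by at least 2-fold. The groups did not overlap for 597 genes higher (4.16%) and 335 genes lower (2.34%). This count was fragile. Leaving out knockout-labelled library 1, 2 or 4 as well gave 8, 3 or 19 genes, and leaving out control 1, 3 or 4 gave 16, 18 or 16. The count was 672 when knockout-labelled library 3 was left out and 966 when control 2 was. The 3 genes called in all 22 alternative fits were Pon1, Serpina3k and Bckdhb.

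Library 5 did not share most of the differences of the genes called higher, and was about evenly split for the genes called lower. Of the 198 genes called higher without it, library 5 was on the same side of the control mean for 70, beyond every control the same way for 27 and beyond every control the other way for 67. Of the 134 called lower, the same counts were 66, 30 and 39. Over all genes tested, library 5 was on the same side of the control mean as the other 4 for 46.2%. It lay above every control for 26.2% and below every control for 26.8% of all genes. The counts for the genes called lower were near these shares. The genes called higher also differed in make-up: their median transcript was 44.59% G and C and 4087 bases long, against 51.49% and 2614.5 bases for genes called lower and 49.66% and 3221 bases for all genes tested. The library-wide balance of GC-poor over GC-rich genes differed between libraries. It was 0.24, 0.34, -0.06 and 0.28 log2 units in knockout-labelled libraries 1 to 4 and -0.30 in library 5, against -0.35 to 0.20 in controls. A correction of each library for GC content, added after seeing the data, left 133 genes called, 67 higher and 66 lower, of which 114 were among the 332. The part of base composition in single genes was not tested.

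Grb14 was called higher without library 5, and in the female libraries as well. It encodes an adaptor that binds the insulin receptor and inhibits its kinase. Grb14 read 52.5, 50.6, 46.3 and 51.5 CPM in knockout-labelled libraries 1 to 4 and 32.8 CPM in library 5, against 16.5 to 36.9 CPM in controls (median 27.1). Libraries 1 to 4 lay above every control and library 5 lay among the controls. The log2 fold change was 0.88 ± 0.18 (adjusted p = 0.0205) without library 5 and 0.78 with it (adjusted p = 0.0795). The call without library 5 was lost when control 1, 3 or 4 or knockout-labelled library 1, 2 or 4 was also left out. It was the 1 gene called of 25 in insulin signalling, beside 1.38% of all genes called higher, and the median of the list was 0.02 (-0.02 with all libraries). The insulin receptor Insr read 145 to 162 CPM in libraries 1 to 4, against 128 to 153 CPM in controls, and the insulin-regulated glucose transporter Slc2a4 259 to 321 CPM against 270 to 407 CPM, and neither passed.

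The genes of smallest p that were higher without library 5 included Dr1, Rnf6 and Sirt1. Dr1, a repressor of TBP-driven transcription, read 41.8, 45.8, 37.9 and 42.8 CPM in libraries 1 to 4 and 22.4 CPM in library 5, against a control mean of 28.1 CPM (log2 fold change 0.54 ± 0.09, adjusted p = 0.00718, against 0.40 and 0.167 with all libraries). Rnf6, a ubiquitin ligase, read 46.7 to 56.7 CPM in libraries 1 to 4 and 27.4 CPM in library 5, with a control mean of 32.2 CPM (log2 fold change 0.64, adjusted p = 0.00784, against 0.51 and 0.142 with all libraries). Sirt1, the NAD-dependent deacetylase, read 37.5 to 45.5 CPM and 15.0 CPM in library 5, against 21.8 to 37.8 CPM in controls (log2 fold change 0.64, adjusted p = 0.0205, against 0.44 and 0.323 with all libraries). For all 3 genes library 5 lay on the low side of the control mean. The call without library 5 was lost in 1 of 22 alternative fits for Dr1 and Rnf6 and in 6 for Sirt1. Arntl, the core clock activator also called Bmal1, differed in that library 5 was also high: it read 5.70, 5.26, 2.62, 4.58 and 6.55 CPM in libraries 1 to 5, against 1.22 to 2.72 CPM in controls. Its log2 fold change was 1.04 ± 0.26 (adjusted p = 0.0408) without library 5 and 1.17 (adjusted p = 0.07) with it. The call was lost in limma-voom without sample weights, with a GC correction, with no filter and in 6 fits that left out 1 more library, which leaves 13 of 22. It was the 1 clock gene called of 19, beside 1.38% of all genes called higher. Dbp, a direct output of the clock, read 121 to 175 CPM in libraries 1 to 4 and 94.7 CPM in library 5, against 173 to 273 CPM in controls, and did not pass (adjusted p = 0.322).

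Most genes of the respiratory chain had small negative fold changes in libraries 1 to 4, of which few passed the test, and library 5 was high in most of them. Of 75 nuclear-encoded respiratory chain genes, 64 had a negative fold change without library 5 (median -0.18, against -0.05 with all libraries), and 4 were called lower and none higher, where 0.934% of all genes were called lower: Ndufa10 and Ndufb9 of complex I, and Atp5g2 and Atp5o of the ATP synthase. Atp5o, which encodes a stalk subunit, read 11.8, 10.5, 9.71 and 13.4 CPM in libraries 1 to 4 and 17.2 CPM in library 5, against 14.7 to 24.5 CPM in controls (log2 fold change -0.87 ± 0.16, adjusted p = 0.0131, against -0.72 and 0.0723 with all libraries). Of these 75 genes, 60 lay above every control in library 5, as did 26.2% of all genes. Hadha, the alpha subunit of the trifunctional protein of fatty acid oxidation, was the 1 gene called of 20 tested in that pathway. It read 277, 271, 329 and 274 CPM in libraries 1 to 4 and 490 CPM in library 5, against 335 to 408 CPM in controls (log2 fold change -0.43 ± 0.11, adjusted p = 0.0399, against -0.23 and 0.481 with all libraries). Of 12 mitochondrially encoded genes tested, 1 was called higher without library 5, beside 1.38% of all genes. This was mt-Co1, a core subunit of cytochrome oxidase, at 8838 to 13569 CPM in libraries 1 to 4 and 6182 CPM in library 5, against 6820 to 8507 CPM in controls (log2 fold change 0.54, adjusted p = 0.0333, against 0.41 and 0.228 with all libraries). The calls of Hadha and mt-Co1 without library 5 were each lost in 9 of 22 alternative fits, among them the GC correction and the fit with no filter.

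De novo lipogenesis, the making of fatty acids from citrate, gave 0 calls in either fit by edgeR, DESeq2 or limma-voom without sample weights, and 4 calls with library 5 and 6 without it by limma-voom with sample weights, with 2 genes at an unadjusted p below 0.05 in edgeR with library 5 and 4 without it. Without library 5, 23 of its 24 genes had a negative fold change, with a median of -0.43. With library 5 the median was -0.00, and 19 of the 24 genes lay above every control in that library, as did 26.2% of all genes. Library 5 was singled out with its lipogenic levels known, so this excess is a description and not a separate finding. Fasn, the fatty acid synthase, read 3226 to 9310 CPM in libraries 1 to 4 and 27122 CPM in library 5, against 5555 to 14698 CPM in controls. Acly, which makes cytosolic acetyl-CoA from citrate, read 897, 412, 478 and 331 CPM in libraries 1 to 4 and 5133 CPM in library 5, against 444 to 1008 CPM in controls. Both genes overlapped between labels in libraries 1 to 4 and library 5 was above every other library. All 23 measured cholesterol genes lay above every control in library 5, among them Cyp51, the lanosterol demethylase, at 121 CPM against 33.1 to 44.6 CPM in controls. Without library 5 the median of these 23 genes was -0.12. In libraries 1 to 4, 2 of them lay above every control and 2 below, beside 4.16% and 2.34% of all genes. In each fit 0 were called by edgeR or limma-voom without sample weights, 2 by DESeq2 and 5 by limma-voom with sample weights. Other genes high in library 5 were Mid1ip1, which activates acetyl-CoA carboxylase, at 548 CPM against 46.3 to 53.4 CPM in libraries 1 to 4, and Thrsp, a lipogenic nuclear protein, at 5330 CPM against 997 to 1154 CPM. Pck1, the PEP carboxykinase that fasting raises and insulin lowers in fat, was low there, at 255 CPM, against 1591 to 1872 CPM in libraries 1 to 4.

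**Figure D2:**
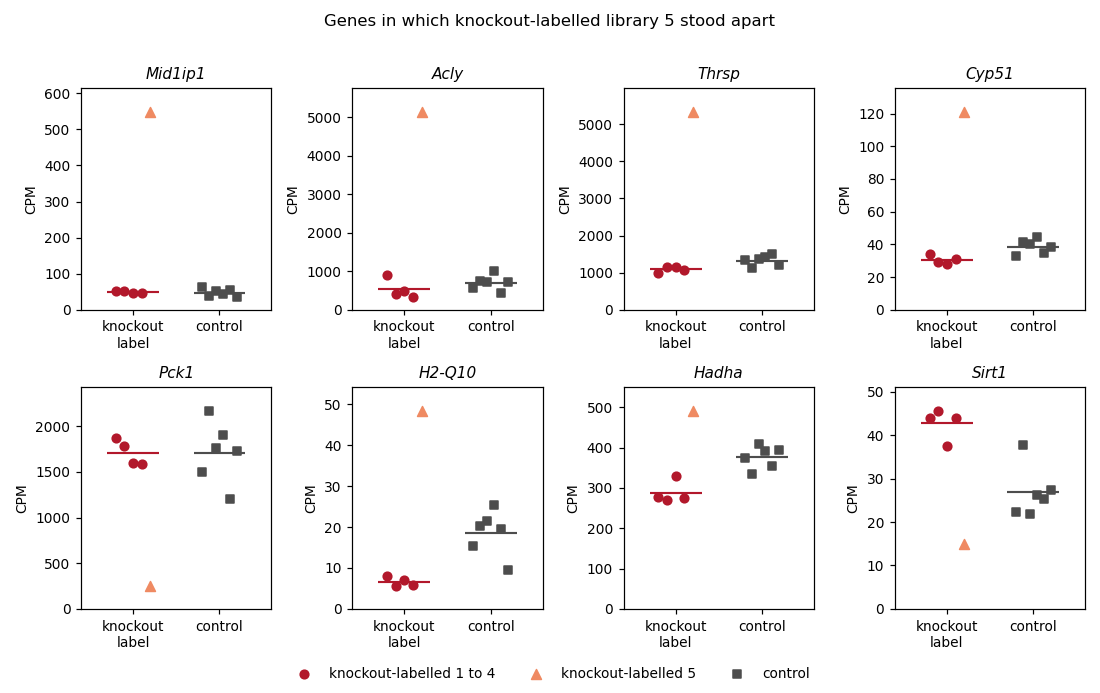
Level in CPM (linear axis from 0) of 8 genes in which knockout-labelled library 5 (triangle) stood apart, knockout-labelled libraries at the left of each panel and the 6 controls (squares) at the right; lines are the means of libraries 1 to 4 and of the controls. Mid1ip1, Acly, Thrsp, Cyp51, H2-Q10 and Hadha are higher in library 5 than in all other libraries, and Pck1 and Sirt1 are lower.

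**Figure D3:**
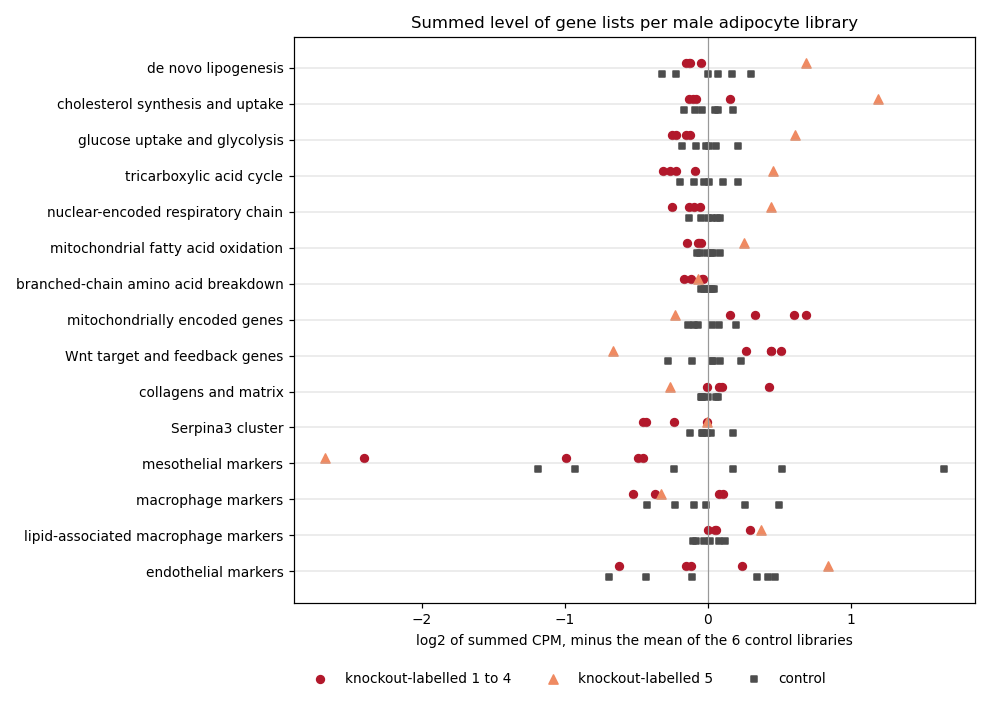
Summed CPM of 15 gene lists in each male adipocyte library, as log2 units from the mean of the 6 controls; for each list the knockout-labelled libraries are the upper row (circles for 1 to 4, a triangle for 5) and the controls the lower row (squares). Library 5 is right of every other library for lipogenesis, cholesterol synthesis, glycolysis, the tricarboxylic acid cycle and the respiratory chain.

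No gene of the Wnt lists was called in edgeR. Of 23 genes in the list of Wnt targets and feedback genes, 13 passed the filter on low counts; without library 5 their median was 0.18, and 0 were called with either set of libraries by edgeR, DESeq2 or limma-voom without sample weights and 3 by limma-voom with sample weights, with 1 at an unadjusted p below 0.05 in edgeR. Axin2, the feedback target used most often as a readout, read 17.6, 9.83, 12.8, 12.6 and 8.35 CPM in knockout-labelled libraries 1 to 5, against 11.9 to 23.5 CPM in controls (median 16.6), and the groups overlapped (log2 fold change -0.49, adjusted p = 0.405 with 11 libraries). Sfrp5, a secreted Wnt inhibitor of adipocytes, read 145 to 193 CPM in libraries 1 to 4 and 12.7 CPM in library 5, against 31.1 to 98.7 CPM in controls. Libraries 1 to 4 lay above and library 5 below every control, and the gene did not pass (adjusted p = 0.284 without library 5). The summed level of the Wnt target list had the same order, at 868 to 1028 CPM in libraries 1 to 4 and 455 CPM in library 5, against 596 to 848 CPM in controls. That sum includes Sfrp5 and is carried mostly by Sfrp5, Myc and Apcdd1, so it does not describe the list gene by gene. Apcdd1 read 332 to 400 CPM in libraries 1 to 4 and 204 CPM in library 5, against 305 to 365 CPM in controls. Myc, a Wnt target in many tissues, read 269 to 345 CPM in libraries 1 to 4 and 144 CPM in library 5, against 182 to 290 CPM in controls (adjusted p = 0.154). Of 24 catenins, destruction complex members and Tcf/Lef partners, 0 were called by edgeR or limma-voom without sample weights, 5 by limma-voom with sample weights, 7 had an unadjusted p below 0.05 in edgeR without library 5, and 2, Csnk1a1 and Gsk3a, were called by DESeq2 in that fit. Jup, which encodes the β-catenin relative plakoglobin, read 283 to 382 CPM in libraries 1 to 4, against 248 to 364 CPM in controls.

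Some markers of lipid-associated macrophages, the cells that take up lipid in fat, rose without library 5. Of 13 tested without library 5, 11 had a positive fold change (median 0.71, and 0.70 with all libraries) and 3 were called higher, where 1.38% of all genes were: Gpnmb, a lysosomal glycoprotein, Spp1, the secreted protein osteopontin, and Atp6v0d2, a proton pump subunit. Gpnmb read 46.1, 32.1, 45.2 and 88.7 CPM in libraries 1 to 4 and 19.2 CPM in library 5, against 10.6 to 15.4 CPM in controls 1 to 5 and 35.7 CPM in control 6. Its log2 fold change was 1.69 ± 0.37 (adjusted p = 0.0296) without library 5 and 1.49 (adjusted p = 0.121) with it. Spp1 read 1.35 to 2.54 CPM in libraries 1 to 4 and 0.993 CPM in library 5, against 0.181 to 1.27 CPM in controls. Atp6v0d2 read 3.57 to 7.49 CPM in libraries 1 to 4 and 2.75 CPM in library 5, against 1.09 to 4.43 CPM in controls. Neither was called with all libraries (adjusted p = 0.142 for Spp1 and 0.145 for Atp6v0d2). Without library 5 the call held in 15 of 22 alternative fits for Gpnmb, 12 of 21 for Spp1, which lost it in DESeq2, and 12 of 22 for Atp6v0d2. Of the general macrophage markers 16 of 19 had a negative fold change, 0 were called by edgeR, DESeq2 or limma-voom with or without sample weights and 0 had an unadjusted p below 0.05 in edgeR without library 5, and their summed level was 575 to 890 CPM in libraries 1 to 4 and 659 CPM in library 5, against 614 to 1165 CPM in controls. In the stromal-vascular libraries Gpnmb stood at 213 to 588 CPM in the 4 knockout-labelled libraries and at 119 to 184 CPM in the 3 controls, and Atp6v0d2 at 24.6 to 65.8 CPM against 14.7 to 24.6 CPM, given as levels with no test. Spp1 stood there at 17.8 to 22.2 CPM under the knockout label and at 9.10, 7.78 and 25.1 CPM in the controls, 1 of which lay above every knockout-labelled library. In whole fractions, a change in the number of cells of a type and a change in RNA per cell cannot be told apart.

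Mesothelial markers, which belong to the lining of visceral fat, were at lower levels under the knockout label without passing the test. All 12 tested without library 5 had a negative fold change (median -1.12), none was called by edgeR, DESeq2 or limma-voom without sample weights, 2 were called by limma-voom with sample weights, 5 had an unadjusted p below 0.05 in edgeR, and Bnc1 was below the filter. Their summed level was 7.59 to 29.3 CPM in libraries 1 to 4 and 6.27 CPM in library 5, against 17.6 to 126 CPM in controls. Upk3b, a defining marker, read 2.88 to 11.2 CPM in libraries 1 to 4, against 7.61 to 57.2 CPM in controls. The part of these cells in the genes above was not tested. Endothelial markers summed to 272 to 494 CPM in libraries 1 to 4 and 750 CPM in library 5, against 260 to 582 CPM in controls. Of these, 11 of 12 lay above every control in library 5, as did 26.2% of all genes. Skeletal muscle markers summed to 13.9 to 30.4 CPM in libraries 1 to 4 and 15.8 CPM in library 5, against 31.6 to 69.7 CPM in controls. Every knockout-labelled library lay below every control in this sum. Of the 9 markers 2 passed the filter. In each fit 0 were called by edgeR or limma-voom without sample weights, 1 by DESeq2 and 1 by limma-voom with sample weights.

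H2-Q10 and a pair of serum amyloid genes were also lower without library 5. H2-Q10, a secreted class I molecule, read 7.99, 5.49, 6.95 and 5.81 CPM in libraries 1 to 4 and 48.3 CPM in library 5, against 9.49 to 25.3 CPM in controls. Its log2 fold change was -1.55 ± 0.30 (adjusted p = 0.0205) without library 5 and -0.34 (adjusted p = 0.795) with it, and class I genes share sequence that the counting may split. The acute-phase genes Saa1 and Saa2 were called too. Saa1 read 2.62, 1.51, 1.45 and 0.817 CPM in libraries 1 to 4 and 6.41 CPM in library 5, against 2.54 to 8.86 CPM in controls, so that library 1 overlapped the controls and library 5 lay among them (log2 fold change -1.84, adjusted p = 0.0421, against -1.14 and 0.322 with all libraries). Saa2 read 0.999 to 2.21 CPM in libraries 1 to 4 and 12.8 CPM in library 5, against 3.12 to 10.2 CPM in controls (log2 fold change -1.68, adjusted p = 0.0235, against -0.46 and 0.731 with all libraries). Without library 5 the call held in 17 of 22 alternative fits for H2-Q10, 16 for Saa2 and 11 for Saa1. Saa1 lost it with a GC correction and with no filter, among others.

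Further groups of small decreases came from lists added after seeing the data, so their counts are descriptive. Of 8 genes of haem synthesis, 3 were called lower without library 5 and none higher (median -0.21, and -0.15 with all libraries), beside 0.934% of all genes called lower. Among them were Alad and Urod, which encode cytosolic enzymes of the pathway. Alad read 87.3, 88.5, 95.4 and 92.7 CPM in libraries 1 to 4 and 128 CPM in library 5, against a control median of 116 CPM (log2 fold change -0.40, adjusted p = 0.0315, against -0.28 and 0.26 with all libraries). Libraries 1 to 4 lay below every control and library 5 above every control. Of 20 aminoacyl-tRNA synthetases, which charge transfer RNAs with their amino acids, Kars, Mars and Sars were called lower, and none higher (median -0.20, and -0.07 with all libraries). Sars, the seryl-tRNA synthetase, read 117 to 136 CPM in libraries 1 to 4 and 169 CPM in library 5, against 131 to 180 CPM in controls. Of 74 mitochondrial ribosome genes, 61 had a negative fold change (median -0.15, and -0.03 with all libraries), 4 were called lower and none higher, and 62 lay above every control in library 5, beside 26.2% of all genes. None of these 10 genes was called in females or with library 5 included.

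The female libraries were fitted together with the male ones, to test whether the difference between labels itself differed between male and female libraries. Sex and fat depot cannot be told apart in this test, because the labels do not single out the depot of a library. Hoxc10 stood at 14.5 to 20.6 CPM in the female adipocyte libraries, against 0.0454 to 0.998 CPM in the male ones. With all 11 male libraries, the male difference departed from the female one for 2 of 14227 genes (0.0141%), Serpina3k and Akirin2. Without library 5 it did so for 22 of 14344 (0.153%). Serpina3k was lower under the knockout label in males and stood at 0.932 to 2.37 CPM in knockout-labelled females, against 0.657 to 1.76 CPM in control females; the male minus female difference was -2.01 log2 units (adjusted p = 0.0213) with all libraries. Serpina3b, Hoxc10, Sirt1, Atp5o, H2-Q10 and Hadha were among the 22. Hadha read 386 to 448 CPM in knockout-labelled females, against 273 to 348 CPM in control females, and the male minus female difference without library 5 was -0.87 (adjusted p = 0.0194). Hadhb, the partner subunit of Hadha, and Acaa2, a thiolase of fatty acid oxidation, were also among the 22. That count rested on single male libraries: it was 7 without control 1, 81 without control 2, 6 without control 3, 9 without control 4 or 5, 12 without control 6, 1 without knockout-labelled library 4, and 0 in edgeR without library 1 or 2, with 1753 and 1638 genes at an unadjusted p below 0.05.

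Other genes pointed the same way in both sexes. Pon1 read 1.42 to 5.37 CPM in knockout-labelled females, against 6.44 to 15.5 CPM in control females (log2 fold change -1.37 ± 0.33, adjusted p = 0.0607). Colec12 read 16.2 to 24.2 CPM against 35.8 to 46.1 CPM in control females (-0.94 ± 0.15, adjusted p = 0.00382). Grb14 read 16.5 to 21.9 CPM against 4.38 to 9.63 CPM in control females (1.55 ± 0.18, adjusted p = 0.000126). For these 3 genes every knockout-labelled female library lay on one side of every control, as for Bckdhb, at 120 to 154 CPM against 162 to 221 CPM (-0.39 ± 0.11, adjusted p = 0.11). The sex difference of these 4 did not pass the test in either fit, which does not show that the sexes act alike. Of the 198 genes called higher in males without library 5, 133 had a positive fold change in females and 2 were called there; of the 134 lower, 73 of 133 with a female value were negative and 1 was called. Over all genes 54.2% shared their sign between the sexes, and in females 67 genes were called (0.471%), 46 higher (0.323%) and 21 lower (0.148%) under the knockout label.

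**Figure D4:**
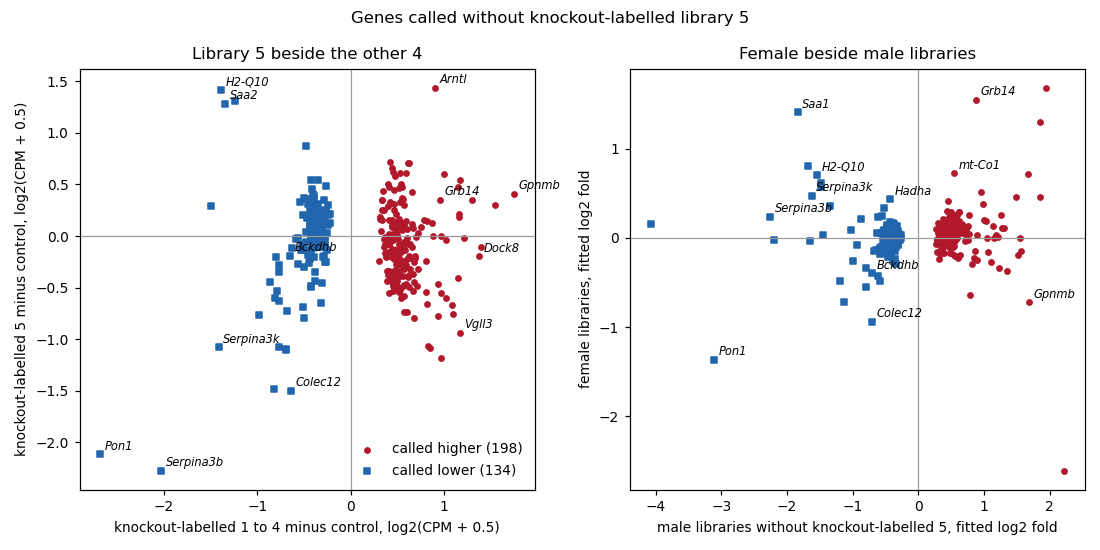
The 332 genes called without library 5 (circles higher, squares lower in knockout-labelled libraries). Left, the mean of knockout-labelled libraries 1 to 4 minus control on the x axis and library 5 minus control on the y axis, both in log2(CPM + 0.5); right, fitted log2 fold change in males without library 5 (x) and in females (y). Pon1, Serpina3b, Serpina3k and Colec12 lie below 0 on both axes at the left, while H2-Q10 and Saa2 lie below 0 only on the x axis; Pon1, Colec12 and Bckdhb are also negative and Grb14 positive in females.

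Outside the adipocyte fraction the leading genes differed in level. Pon1, Serpina3b and Serpina3k stood at 0 to 0.244 CPM in all 7 stromal-vascular libraries. Colec12 read 66.8 to 113 CPM in the 4 knockout-labelled stromal-vascular libraries, against 128 to 139 CPM in the 3 controls, levels given with no test. Bckdhb read 10.1 to 14.9 CPM there against 11.4 to 16.6 CPM in controls. Grb14 read 0.942 to 3.56 CPM against 1.11 to 2.24 CPM in controls.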

How the data were processed

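Whole-number read counts per gene were deposited by the authors for 35120 genes, of which 33501 carry a symbol. The tools listed, per the submitters' processing notes, are STAR 2.7.11a, FastQC 0.12.1 and DESeq2, with build mm39. Which program counted the reads, with which annotation and strand setting, is not given in the sources used here. These deposited counts carry no normalization, and the authors' second table, of transformed values, was not used here. All 23 adipocyte libraries were fitted as 4 groups in edgeR 4.0.16 (R 4.3.3) with TMM scaling, filterByExpr (minimum count 10) and a robust quasi-likelihood F-test, then refitted as 22 libraries without male knockout-labelled library 5. The interaction contrast tested male minus female. P-values were Benjamini-Hochberg adjusted over all genes tested. The steps were tested on simulated data. Of 67 genes changed 1.5-fold, 42 were recovered with 11 libraries and 40 without library 5. Of 67 changed 2-fold, 59 and 63 were recovered. Genes left unchanged gave 11 and 15 false calls. The simulated knockout-labelled libraries shared 1 mean per gene, so none stood apart as library 5 does. Every pair of same-group libraries differed by more than counting noise (lowest chi-square per degree of freedom 11.9). No column of per-sample values was left out (0).

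The comparison, its 45 gene lists and the rule for named genes were chosen with earlier results of these data known, and 5 more lists and the GC and limma-voom alternatives were added after seeing the data. Named genes were Ctnnb1, every gene called with 11 libraries, the 12 of smallest p and 6 of largest change each way without library 5 at a mean of at least 5 CPM, up to 3 members of each list, and 6 genes each way in which library 5 stood farthest apart. Genes named outside that rule, such as Pon2, Serpina3m, Bcat2, Sfrp5 and Insr, were chosen after their values were seen. Some genes that the rule names are not reported here. GC content and length come from the longest transcript per gene of GENCODE vM21. Alternatives were other scalings, filters, DESeq2 1.42.0, limma 3.58.1, replicate blocks, GC correction and leaving out each library.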

Additional observations from a re-analysis of the deposited data

Results flagged for a closer look

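A sample far from the others of its group was found in 43 of the 266 groups of values examined (knockout-labelled or control, for single genes or summed lists). The cutoff is one that flags about 1 in 20 groups of unselected values. Of the 43, 29 were knockout-labelled library 5. The genes examined include some named because library 5 stood apart, so this count is fixed in part by their choice and is not set against chance. In CPM, with the range of the other 4 knockout-labelled libraries, library 5 was high for Bckdhb (194, others 134 to 148), H2-Q10 (48.3, others 5.49 to 7.99), Anapc7 (38.0, others 27.2 to 30.1), Alkbh7 (12.4, others 6.48 to 6.90), Saa2 (12.8, others 0.999 to 2.21), Dgat1 (470, others 259 to 313), Hadha (490, others 271 to 329), Cox8b (7.58, others 1.85 to 3.50) and Emcn (23.7, others 6.66 to 8.09). It was also high for Mid1ip1 (548), Acly (5133), Parm1 (84.5), Thrsp (5330), Pmvk (183) and Cyp51 (121), and had 0.135 CPM of Hoxa11, which was at 0 in the other 4. Library 5 was low for Sirt1 (15.0, others 37.5 to 45.5), Unc79 (1.08, others 4.63 to 5.88), Pck1 (255, others 1591 to 1872) and Synpo2 (23.3, others 161 to 179).

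Among summed lists in CPM, library 5 was high for de novo lipogenesis (99586), glycolysis (16979), cholesterol synthesis (2826), the tricarboxylic acid cycle (11713), the respiratory chain (22804), fatty acid oxidation (5340) and the cell cycle (165). Its lipogenic levels were already known when it was singled out. It was low for Wnt targets (455, others 868 to 1028) and lipolysis (10769, others 12553 to 13128). Knockout-labelled library 4 stood apart for Atp6v0d2 (7.49, others 2.75 to 3.95).

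Single controls stood apart as well. Control 2 was high for Morf4l2 (187), Btbd10 (19.7), Ppp4r3a (28.2), Sirt1 (37.8), Cd55 (20.4) and the summed paraoxonases (272, others 220 to 239), control 3 was low for Bckdhb (170, others 221 to 244), and control 6 was high for Gpnmb (35.7, others 10.6 to 15.4) and Atp6v0d2 (4.43, others 1.09 to 1.77). Control 1 was high for Saa2 (10.2, others 3.12 to 5.31), adipokines (42529, others 35119 to 36517), mesothelial markers (126, others 17.6 to 57.6) and epididymal and sperm transcripts (4.70, others 0.544 to 1.09). These ranges are of the other controls. Knockout-labelled libraries 2 and 4 were higher still for epididymal and sperm transcripts, at 5.94 and 6.54 CPM.

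The difference between labels was itself different in males and females for 9 of the named genes, by the interaction test of edgeR adjusted over all genes. Sex and fat depot cannot be told apart in this test. In log2 units, male minus female, Serpina3k gave -2.01 with all male libraries (adjusted p = 0.0213) and -2.10 without library 5 (adjusted p = 0.0194). Without library 5 the others were Serpina3b at -2.49, Hoxc10 at -2.18 and Sirt1 at 0.83 (adjusted p = 0.0496 each), Atp5o at -1.08 and Cd99l2 at -0.53 (adjusted p = 0.0358 each), and H2-Q10 at -2.25, Pfkm at -0.73 and Hadha at -0.87 (adjusted p = 0.0194 each).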

How the results depend on the processing

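Pon1, Serpina3k and Bckdhb kept their direction and call without library 5 under every alternative run, while the numbers of genes called moved widely. With 11 libraries, against 10 called genes, DESeq2 gave 159, limma-voom with sample weights 2778, the male libraries alone 6 and a GC correction with replicate block 33. Leaving out 1 library gave 4 to 332. For the male minus female difference, against 2 genes, no filter gave 1, DESeq2 23, weighted limma-voom 771 and the GC correction with replicate block 1, and leaving out 1 library 0 to 22, where both fits in edgeR with 0 calls had 1084 and 1004 genes at an unadjusted p below 0.05. Without library 5, against 332, no filter gave 53, DESeq2 896, weighted limma-voom 3277, the male libraries alone 841, the GC correction 133 and leaving out 1 more library 3 to 966. The male minus female count of 22 was 4 with no filter, 216 with DESeq2, 1244 with weighted limma-voom, 12 with limma-voom without weights, 175 with the GC correction and replicate block, and 0 to 81 with 1 more library left out. Limma-voom without weights gave 11 and 370 called genes, close to edgeR. The cause of these differences was not tested. With no filter, 28560 genes entered the test in place of 14227.

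Whether the replicate numbers pair the samples was not established. The deviations of same-numbered knockout-labelled and control libraries correlated at -0.373, 0.424, 0.0641, -0.25 and 0.0605 by title number. By column number the last pair was at -0.447. No values for differently numbered pairs are given here. With the replicate block, the calls with 11 libraries numbered 17 by title number and 23 by column number, and 1 for the sex difference by either; without library 5 they numbered 962, and 202 for the sex difference. The genes named as low in counts (Fmo4, Hoxc10, Hoxa11) are limited by depth, and no fold change is given for Hoxa11, which had 0 counts in knockout-labelled libraries 1 to 4 and 0.045 to 0.136 CPM in controls.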
